A study of Mus musculus with 2 samples.

Results

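The proteasome genes of mouse bone marrow-derived macrophages were described here from polyA-selected RNA of whole cells. Genes were taken where the symbol began with Psm, a letter from a to g and a digit, and where at least 1 transcript was typed protein coding. The pattern found 54 genes. The immunoproteasome subunits Psmb8, Psmb9 and Psmb10 and the activator subunits Psme1 and Psme2 (5 genes) and 4 pseudogenes were left out, which gave 45 genes of 55536 in the gene tables. These were 14 subunits of the 20S core particle, 17 subunits of the 19S regulatory particle, 2 tissue-restricted core subunits, 3 assembly chaperones of the 19S base, 4 assembly chaperones of the 20S core and 3 genes for other activators or an inhibitor. The symbol pattern also caught Psmc3ip and Psme2b, whose products are not counted among the subunits here. The 45 genes lay on 16 chromosomes of mm10, with 10 on chromosome 11.

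The series held 1 group of 2 libraries. The macrophages came from the C57BL/6J strain and, by the labels' description, received Lipid A at 100 ng/ml for 12 h, a washout of 12 h and a further 300 min of Lipid A at 100 ng/ml. Elsewhere the labels call the agent lipoprotein A, a protein, and which name is right could not be worked out from them. Both libraries carry the same donor identifier but separate biosample identifiers, age and sex were not collected, and no sample without the treatment was used, so the spread between libraries may be technical and no response to the treatment could be measured. Expected counts summed to 50503159 in replicate 1 and 46342331 in replicate 2. In bulk RNA, fewer cells of a type and less RNA per cell cannot be told apart. All 8 macrophage markers were at 10 TPM or more in both libraries (a transcript level scaled to length and library total), and the listed markers of T and NK cells (5), B cells (3), fibroblasts (4) and red cells or megakaryocytes (4) were under 1 TPM. The 6 neutrophil markers summed to 61.9 TPM in replicate 1 and 4.39 in replicate 2, with Ly6g at 0 in both, and the 3 endothelial markers summed to 14.3 and 44.7 TPM, mostly Kdr. Their part in the differences between libraries given below was not tested.

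The proteasome is the barrel-shaped protease that degrades proteins tagged with ubiquitin. Its 20S core stacks rings of alpha and beta subunits, and 3 of the beta subunits carry the cutting sites. The 19S regulatory particle caps the barrel: its base holds a ring of ATPases that unfold and feed in the substrate, and its lid carries the enzyme that removes the ubiquitin chain. In immune cells stimulated with interferon, the 3 catalytic beta subunits can be replaced by the immunoproteasome subunits Psmb8, Psmb9 and Psmb10. The transcription factor Nfe2l1, after cleavage by the protease Ddi2, is known to raise proteasome genes when proteasome activity falls, through antioxidant response elements in their promoters.

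Because that element is the known shared control sequence of these genes, the promoter windows were searched for its core, TGACNNNGC, on both strands. The windows are from RefSeq (GRCm38.p6) and run from 250 bases before to 50 bases after each gene's start. A window was found for 37 of the 45 genes. The letters occurred in the windows of 6 of these genes (16.2%), against 13.99% of all 27025 genes with a window, and in 2 of 11 core and 2 of 14 regulatory genes. The share among the proteasome genes was thus near that among all genes. The matches that lie wholly upstream of the start follow, with up to 20 bases on either side, in capitals where the motif matches, reading 5′ to 3′ on the strand of the gene. They are shown so that the wording of the motif in a core catalytic gene can be compared with that in regulatory and chaperone genes.
Psmb6: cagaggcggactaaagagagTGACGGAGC
Psmb5: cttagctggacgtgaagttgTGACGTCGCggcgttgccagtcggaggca
Psmd9: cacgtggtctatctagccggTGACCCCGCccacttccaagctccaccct
Psmc6: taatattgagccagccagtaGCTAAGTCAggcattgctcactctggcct
Psmd12: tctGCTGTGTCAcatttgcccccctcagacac

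The Psmb6 stretch is chr11:70525328-70525356 on the plus strand and its motif begins 9 bases before the start. That of Psmb5, chr14:54618014-54618062 on the minus strand, has its motif 47 bases before the start, and that of Psmd9, chr5:123228139-123228187 on the plus strand, 31 bases before. In Psmc6 (chr14:45329577-45329625, plus strand, 227 bases before) and Psmd12 (chr11:107479278-107479309, plus strand, 247 bases before) the motif reads on the opposite strand. The sixth match, in Psme4, spans the start. The genes with a match ranged in level from 16.0 TPM for Psmd9 to 581 TPM for Psmb6. A match of letters is a description of the window and not a binding site. The CCAAT box (CCAAT, both strands) was in 14 of the 37 windowed genes (37.8%) against 41.1% of all genes, with 6 of 11 core and 4 of 14 regulatory genes. The GC box (GGGCGG, both strands) was in 20 of 37 (54.1%) against 38.2% of all genes, with 5 of 11 core and 10 of 14 regulatory genes. The motifs were searched apart from each other, and overlapping matches were counted for each.

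The question the 45 genes were set to was how the core and the regulatory subunits compare in level. The 14 core subunits had a median of 209 TPM in replicate 1 and 205 in replicate 2 (207 ± 2.95, SD, n = 2). The 17 regulatory subunits had a median of 116 and 133 TPM (124 ± 12.3). The core median was 1.81-fold the regulatory median in replicate 1 and 1.54-fold in replicate 2, a difference of 0.85 and 0.62 on the log2 scale (0.74 ± 0.16, n = 2). Summed over the subunits, the core came to 3246 and 3381 TPM and the regulatory particle to 2081 and 2253 TPM, a ratio of 1.56 and 1.501. In both libraries 12 of the 14 core subunits were above the regulatory median, and in both only the lid subunit Psmd8, of the 17 regulatory subunits, was above the core median. The ranges overlapped: 5 core subunits in replicate 1 and 3 in replicate 2 were above every regulatory subunit, and 8 and 7 regulatory subunits were below every core subunit. The difference had the same direction in both libraries, and no test was made of it, since subunits are not replicates.

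**Figure D1:**
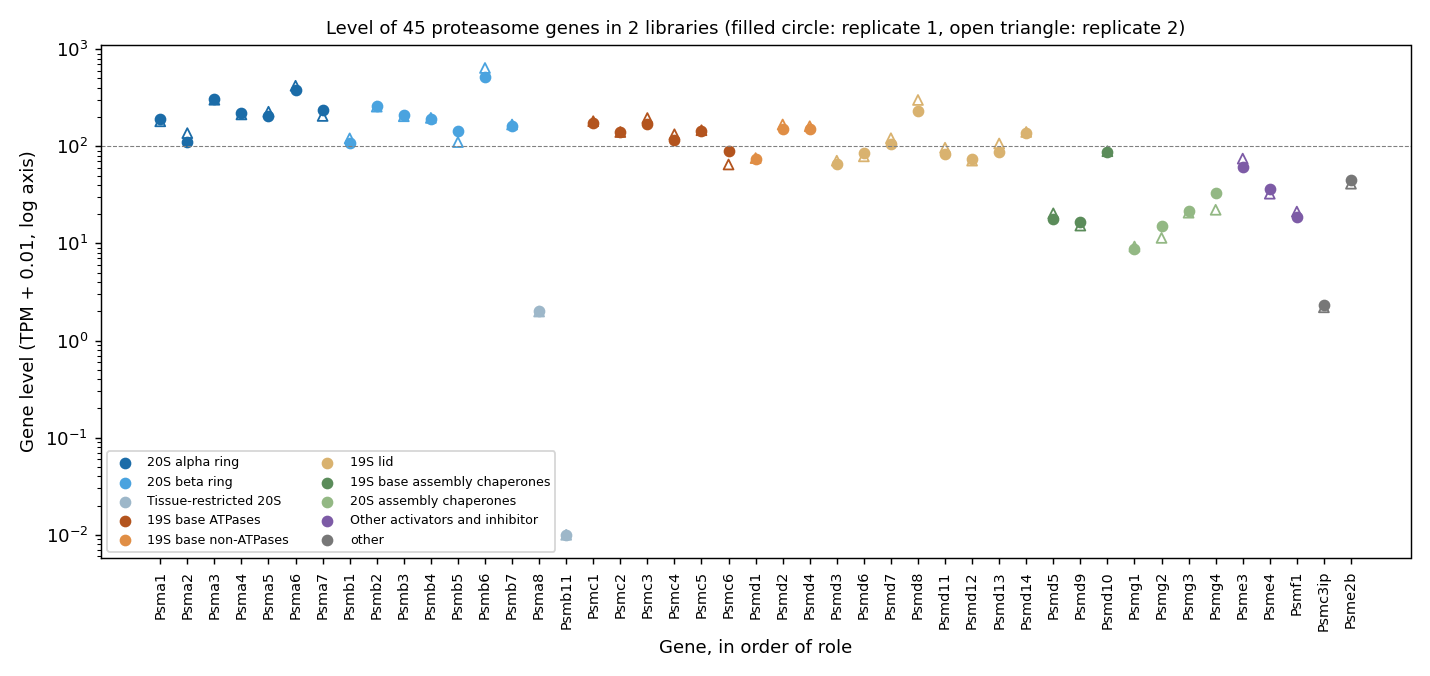
Level of each proteasome gene in both libraries, by role (TPM + 0.01, log axis; filled circles are replicate 1, open triangles replicate 2, colours are roles, the dashed line is at 100 TPM). The levels are those of the first quantification. All 14 core subunits lie at or above 108.6 TPM, the regulatory subunits reach down to 65.0, the chaperones lie mostly near 20 and Psmb11 has no counts in either library.

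All members together held 0.569% of the TPM in replicate 1 and 0.600% in replicate 2. In both libraries 24 of the 45 were at 100 TPM or more, which were all 14 core subunits and 10 of the 17 regulatory subunits. Of all 21901 genes with a coding transcript, 5.45% reached that level. In the second quantification deposited for these libraries 22 members did. There the core subunit Psmb5 was at 128 and 99.7 TPM and the lid subunit Psmd7 at 99.4 and 115. The 41 members at 10 TPM or more in both libraries included every core and regulatory subunit, against 27.5% of all genes with a coding transcript. At 1 TPM or more there were 44 of 45, against 44.6%.

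Among the 7 alpha subunits, which form the outer rings of the barrel and gate its entrance, the median was 217 ± 5.95 TPM. Psma6 was highest at 377 TPM in replicate 1 and 420.2 in replicate 2 (398 ± 30.8). Psma2 was lowest at 110.5 and 137 TPM (124 ± 18.5). These 2 genes did not overlap between libraries, and the highest was 3.22-fold the lowest. Psma3 was at 304 and 302 TPM, and the 4 genes Psma7, Psma4, Psma5 and Psma1 were closer together. Psma7 was at 236 and 206 TPM, Psma4 at 221 and 213, Psma5 at 206 and 227, and Psma1 at 193 and 181. The order of Psma7, Psma4 and Psma5 differed between the libraries, so these neighbours did not differ beyond their spread.

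The 7 beta subunits had a median of 195 ± 2.21 TPM and a wider span, with the highest 5.06-fold the lowest. The 3 catalytic subunits held both a high and a low end of the ring. Psmb6 (chromosome 11, 70525367 to 70527858, mm10), which carries the caspase-like site, was at 520.4 and 641 TPM (581 ± 85.1), the highest of all the 45 genes and within the top 1.08% of genes with a coding transcript. Psmb7 (chromosome 2, 38588036 to 38644087), which carries the trypsin-like site, was at 161 and 168 TPM (165 ± 4.35). Psmb5 (chromosome 14, 54614119 to 54618022), which carries the chymotrypsin-like site, was at 143 and 110.5 TPM (127 ± 22.8). Psmb6 was above both others in each library by more than the spread, and Psmb7 was above Psmb5 in each. Of the 4 beta subunits without a cutting site, Psmb2 was at 261 and 256 TPM, Psmb3 at 211 and 204, and Psmb4 at 193 and 196. Psmb1 had the lowest mean of the beta ring and of the core, at 109 and 121 TPM (115 ± 8.55), but its values overlapped those of Psmb5, which was the lower one in replicate 2.

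The 9 subunits of the 19S base had a median of 145 ± 1.90 TPM. Its 6 ATPases, Psmc1 to Psmc6, had a median of 143 ± 0.612 TPM, and the highest was 2.36-fold the lowest. Psmc3 was highest at 168 and 196 TPM (182 ± 19.3), and its values spanned those of Psmc1 at 176 and 181. Psmc5 at 144 and 146 TPM, Psmc2 at 141 and 140.3, and Psmc4 at 116 and 133 lay between. Psmc6 was the lowest ATPase at 89.2 and 65.0 TPM (77.1 ± 17.1), below the other 5 in both libraries. The base also holds the large scaffold proteins Psmd1 and Psmd2 and the ubiquitin receptor Psmd4. Psmd2, at 151 and 168 TPM (159 ± 12.2), and Psmd4, at 152 and 161 (156 ± 6.46), overlapped, while the other scaffold Psmd1 was at 73.3 and 75.6 TPM (74.4 ± 1.61).

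The 8 lid subunits had the lowest median of the core and regulatory groups, 94.1 ± 10.9 TPM, and the highest was 3.87-fold the lowest. Psmd8 (chromosome 7, 29174188 to 29180701) stood above the rest at 232 and 300.1 TPM (266 ± 48.1). Psmd14, the deubiquitinase that cleaves chains from the substrate, followed at 138 and 140.5 TPM (139 ± 1.62). Psmd14 was close to the receptor Psmd4, at 0.910-fold and 0.873-fold of it in replicates 1 and 2. Psmd7, the partner of Psmd14 in the lid, was at 105 and 121 TPM. Psmd13 was at 87.6 and 107 TPM, Psmd11 at 82.9 and 96.7, and Psmd6 at 85.3 and 78.8. Psmd12 at 74.5 and 71.2 TPM and Psmd3 at 66.5 and 71.1 (68.8 ± 3.25) were lowest, and their values nearly met in replicate 2. The lid was thus uneven, with Psmd8 and Psmd14 above the other 6 in both libraries.

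RNA levels thus differed among subunits that sit in the same particle, in the core as a whole slightly more than in the regulatory particle. The SD of log2 TPM among the 14 core subunits was 0.63 in replicate 1 and 0.68 in replicate 2, and among the 17 regulatory subunits it was 0.53 and 0.62. The parts differed: it was 0.73 and 0.84 in the beta ring, but 0.56 and 0.52 in the alpha ring. In the lid it was 0.58 and 0.69. The order of the subunits was nearly the same in both libraries (Pearson's r 0.97 and Spearman's rho 0.97 over 31 genes, which share the library, as a description).

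Level moved with transcript length in these genes. The effective length (the part of a transcript where a fragment can start) had a median of 822 nt in the core and 1285 nt in the regulatory subunits. Across the 31 subunits, log2 level and log2 effective length had Pearson's r of -0.71 and Spearman's rho of -0.77. Within the core the values were -0.61 and -0.60 over 14 genes, and within the regulatory subunits -0.47 and -0.56 over 17 genes. Across 6017 genes with a coding transcript at 10 TPM or more in both libraries they were -0.34 and -0.29. These are correlations across genes of the same libraries, given as a description. Counts, which are not divided by length, had a core median 1.12-fold and 1.09-fold the regulatory median. Between 1020 and 2136 nt, the range of lengths in which both sets have genes, only Psma2 and Psmb1 of the core remained, with a median of 109.6 TPM in replicate 1 and 129 in replicate 2. The 15 regulatory subunits in that range had 116 and 133 TPM, so over this range the core was not above the regulatory particle (log2 difference -0.064, chosen after seeing the data and resting on 2 core genes). The part of length in the difference between core and regulatory subunits was not tested further.

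**Figure D2:**
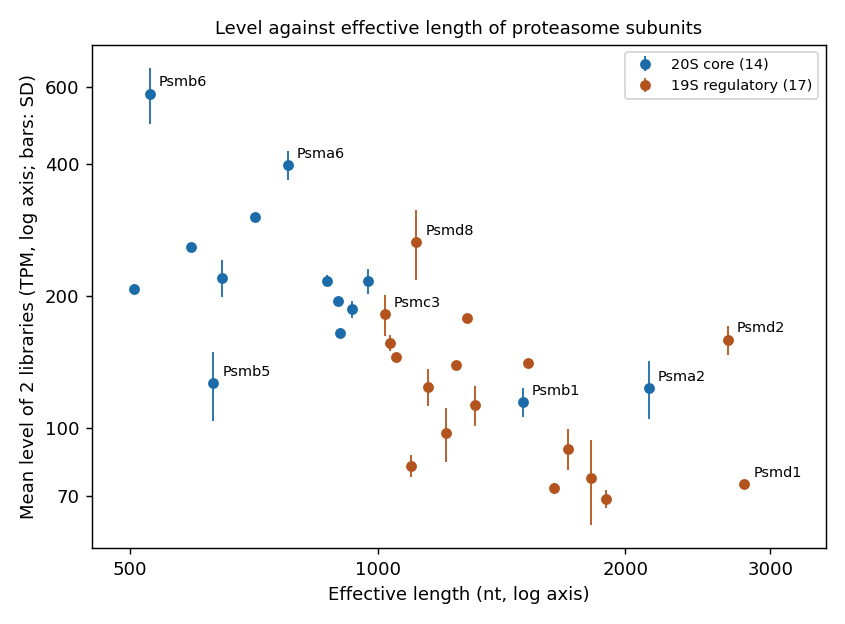
Mean level (TPM, log axis) of each of the 14 core and 17 regulatory subunits against its mean effective length (nt, log axis), with a point per gene and bars of ± SD over 2 libraries. Core subunits sit mostly at short lengths (median 822 nt) and high levels, regulatory subunits at longer lengths (median 1285 nt), and Psmb6 is highest.

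The tissue-restricted core subunits were low or without counts. Psma8, an alpha subunit known from testis, was at 2.00 and 1.98 TPM, from 69 and 73 counts. Psmb11, the catalytic subunit of thymic cortical epithelium, had 0 counts in both libraries in the first quantification. That allows up to 3 counts or 0.0594 and 0.0647 CPM (counts scaled to the library total). The second quantification gave Psmb11 0.0208 and 0.0339 TPM. The RNA of these macrophages thus held the common alpha and beta subunits at levels of 108.6 TPM or more and the tissue-restricted forms at 2.00 TPM or less.

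The 7 chaperones that help build the particle but are not part of it had a median of 19.2 ± 1.69 TPM. Psmg1 and Psmg2, which pair to assemble the alpha ring, were at 8.78 and 9.28 TPM and at 15.1 and 11.4 TPM. Psmg3 was at 21.6 and 20.7 TPM and Psmg4, its partner, at 32.7 and 22.2 from only 317 and 198 counts. Psmg4 was above Psmg3 in both libraries, though by little in replicate 2. Of the 3 chaperones of the base ATPases, Psmd5 was at 18.01 and 20.4 TPM and Psmd9 at 16.7 and 15.3. Psmd10, also called gankyrin, was at 88.4 and 89.0 TPM (88.7 ± 0.42), above the other 6 chaperones in both libraries and inside the range of the lid subunits.

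The genes of alternative caps and of an inhibitor had a median of 34.6 TPM, above the median of the chaperones and below that of the lid, with single genes of these lists overlapping. Psme3, which forms the nuclear PA28 gamma activator, was at 60.8 and 74.7 TPM (67.8 ± 9.83). Psme4, which encodes the PA200 activator, was at 36.7 and 32.5 TPM (34.6 ± 2.97), and Psmf1, an inhibitor of the 20S core in vitro, at 18.9 and 21.3 (20.1 ± 1.70). The order Psme3, Psme4, Psmf1 held in both libraries. Of the genes caught only by their symbols, Psmc3ip, a factor of meiotic recombination, was at 2.30 and 2.19 TPM. Psme2b, a near copy of the activator gene Psme2, was at 45.5 and 41.2 TPM in the first quantification. Of its 50-base windows 69.3% also occur in another gene, mostly Psme2, so its level is uncertain.

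The core genes were set beside the immunoproteasome genes that can replace 3 of them, in log2(TPM + 1). Psmb8 was at 702 and 709 TPM, 4.91-fold and 6.42-fold its constitutive partner Psmb5 (2.48 ± 0.27 on the log2 scale). Psmb9 was at 182 and 193 TPM, below its partner Psmb6 in both libraries (-1.62 ± 0.15), at 0.350-fold and 0.302-fold. Psmb10 was at 335 and 316 TPM, 2.08-fold and 1.89-fold its partner Psmb7 (0.98 ± 0.10). The 3 pairs thus did not point the same way: the immunoproteasome gene was the higher one in the pairs with Psmb5 and Psmb7 and the lower one in the pair with Psmb6. Each difference was larger than the SD between the libraries. The activator genes Psme1, at 575 and 639 TPM, and Psme2, at 1172 and 1144, were both above Psme3 of the other PA28 form, Psme1 at 9.46-fold and 8.55-fold its level and Psme2 at 19.3-fold and 15.3-fold. In the second quantification both were less far above Psme3, Psme1 at 8.20-fold and 6.87-fold and Psme2 at 13.7-fold and 11.7-fold. No untreated sample shows what these ratios were before Lipid A.

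**Figure D3:**
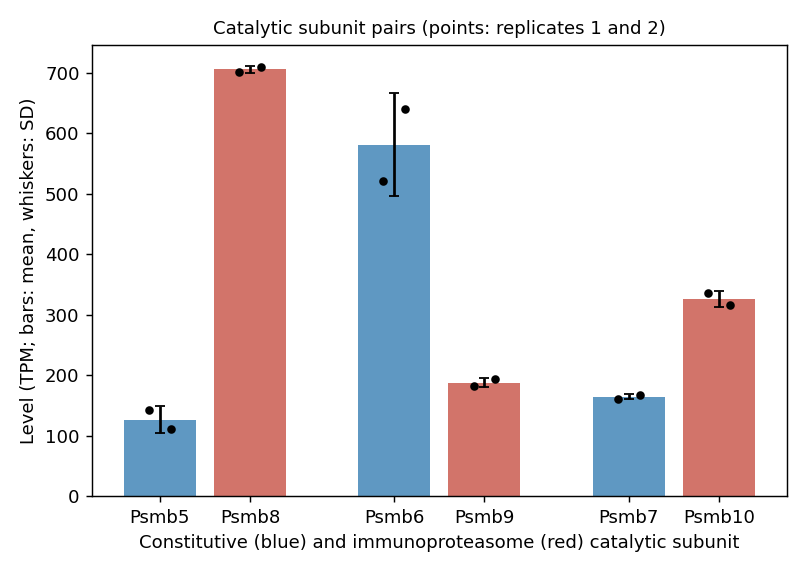
Level (TPM) of each constitutive catalytic subunit and of the immunoproteasome subunit that can take its place, with points for the libraries, bars for their mean and whiskers for ± SD (n = 2). Psmb8 lies above Psmb5 and Psmb10 above Psmb7 in both libraries, while Psmb9 at 182 and 193 TPM lies below Psmb6 at 520.4 and 641.

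The 34 other genes of the pathway that were matched, of 35 listed, included 14 at 100 TPM or more in both libraries and 30 at 10 or more, against 5.45% and 27.5% of all genes with a coding transcript. The 19S subunits Adrm1 (78.4 and 68.5 TPM) and Sem1 (99.4 and 78.4), a ubiquitin receptor and a small lid subunit, have symbols outside the pattern. With them the regulatory median was 113 TPM over 19 genes. The maturation factor Pomp, which completes the 20S core, was at 545 and 530.1 TPM, far above the chaperones Psmg1 to Psmg4. The transcription factors Nfe2l1 (108 and 128 TPM) and Nfe2l2 (138 and 145) were well above the enzymes that process the former, Ddi2 (9.47 and 10.8) and Ngly1 (15.0 and 13.8). The proteasome-bound deubiquitinases Usp14 (55.7 and 73.0 TPM) and Uchl5 (31.3 and 22.0) were below Psmd14 in both libraries. The extraction ATPase Vcp was at 184 and 200.1 TPM and the ubiquitin-activating enzyme Uba1 at 117 and 135. The polyubiquitin gene Ubb was at 1180 and 1373 TPM. None of the 34 was 1.5-fold or more apart between libraries, against 13.2% of all 12543 genes tested. Among the 10067 genes whose counts averaged at least 100, the share was 7.42%. The 34 were not compared with genes of like counts, so this result does not set them apart.

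The libraries were close to each other in the proteasome genes. After TMM scaling (edgeR), 44 of the 45 passed the count filter, and none of them was 1.5-fold or more apart between libraries. Of all 12543 genes that passed, 13.2% were. With a mean count of 100 or more the count was 0 of 42, against 7.42% of 10067 genes. At 2-fold it was again 0, against 4.21% of all genes. The median absolute log2 ratio was 0.13 over the 44 genes, 0.21 over all genes tested and 0.18 over those with a mean count from 100 up. The median count over the 45 members was 5257 in replicate 1 and 5093 in replicate 2. No background of genes with like counts was made, so level and gene family are not separated in these comparisons. Of the 44, 25 were higher in replicate 2 and 19 in replicate 1, with a median log2 ratio of 0.02. Of all 12543 genes tested 50.04% were higher in replicate 2, with a median log2 ratio of 0.00035. The 95% counting interval of the ratio left out equality for 27 of the 44 (15 higher in replicate 2, 12 in replicate 1), against 57.8% of all genes tested. That share was close to the background. The intervals cover counting error only, and with 1 library on each side these ratios compare libraries and not conditions.

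Single genes of the same list went opposite ways between the libraries. Psmd8 (log2 ratio of replicate 2 to replicate 1 0.38, 95% interval 0.34 to 0.42) and Psmb6 (0.31, 0.27 to 0.35) were the genes most above equality. Psmg4 (-0.56, -0.83 to -0.30), Psmg2 (-0.41), Psmc6 (-0.40, -0.45 to -0.34) and Psmb5 (-0.36, -0.44 to -0.28) were the most below it. The catalytic subunits Psmb5 and Psmb6 thus went opposite ways between libraries, as did the regulatory subunits Psmc6 and Psmd8. The median over core subunits was -0.01, with 7 higher in each library, and over regulatory subunits 0.05, with 12 higher in replicate 2 and 5 in replicate 1. Over all genes tested the median was 0.00035, with 50.04% higher in replicate 2. In the lid it was 0.14, with 5 of 8 higher in replicate 2. All 3 base subunits that are not ATPases were higher there, but only for Psmd2 did the 95% interval leave out equality. Over the 4 chaperones of the 20S core the median was -0.25, with 3 higher in replicate 1. Their counts ran from 198 to 499 in a library. These medians were not tested against each other.

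**Figure D4:**
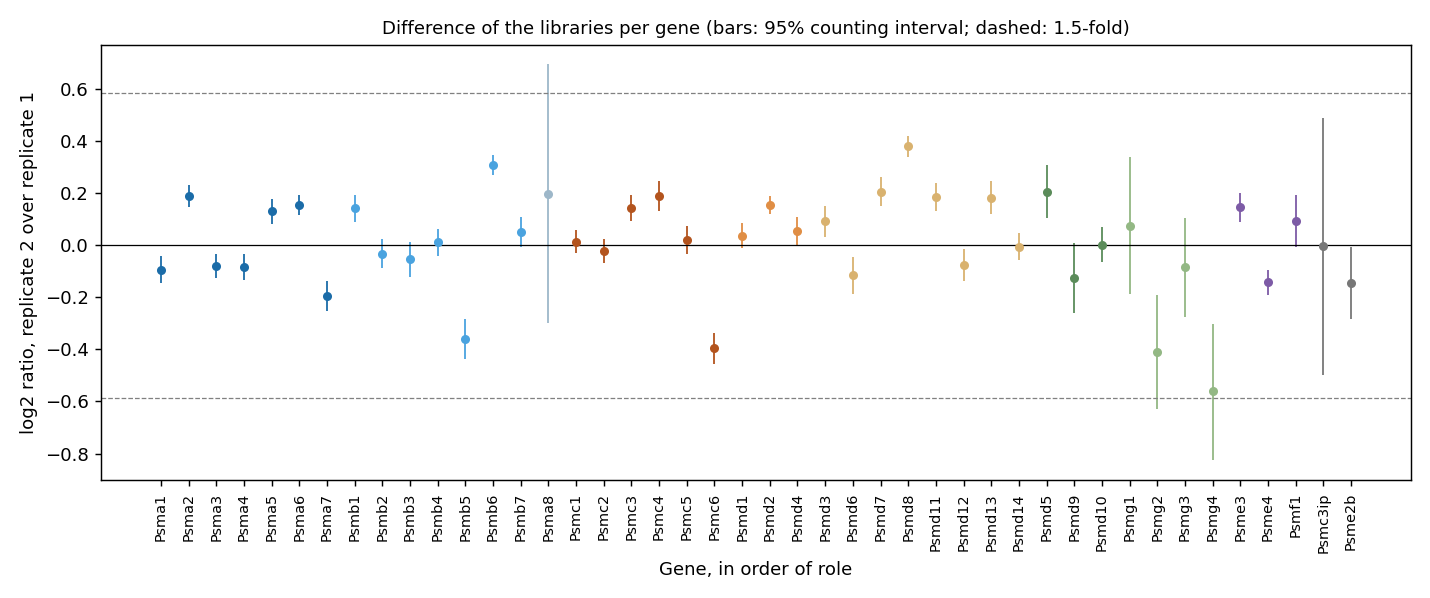
Log2 ratio of replicate 2 to replicate 1 for each proteasome gene after TMM scaling, with 95% counting intervals, grouped by role; dashed lines mark 1.5-fold. All 44 points lie inside the lines, from -0.56 for Psmg4 to 0.38 for Psmd8, and the intervals are widest for Psma8 and Psmc3ip, which have the fewest counts.

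Transcript shares were taken from the TPM of the first quantification. In 36 of the 44 members with counts the leading transcript held 60% or more of the gene's TPM in both libraries, and in 32 it held 80% or more, among them 12 of the 14 core and 13 of the 17 regulatory subunits. The leading transcript was typed protein coding in 43 members, and both quantifications named the same one in 42. Coding transcripts held a median of 99.2% of the TPM of core genes and 97.4% of that of regulatory genes. Only 5 members had under 90%. Shares over all genes were not computed for these counts, so they do not set proteasome genes apart.

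In 6 members the leading transcript was under 60% in both libraries. In Psmc3, Psmd11, Psmd5 and Psmf1 a pair of coding transcripts shared the gene's RNA: Psmc3-202 held 53.3% and 46.4% and Psmc3-210 44.0% and 50.3%. Psmd11-214 held 51.7% and 51.5% with Psmd11-201 at 36.5% and 35.0%, and Psmd5-201 held 52.7% and 54.3% with Psmd5-202 at 45.5% and 41.9%. Psmf1-202 held 48.6% and 51.7%, and Psmf1-201 50.2% and 43.1%. In Psmd13, a lid subunit, the transcript Psmd13-211, typed as a target of nonsense-mediated decay, held 35.6% and 46.0%, and the coding Psmd13-201 42.7% and 34.3%, so the coding transcript led in replicate 1 and the other in replicate 2. In the second quantification the coding Psmd13-201 led, with 52.6% and 42.1%. Coding transcripts held 51.0% of Psmd13 on average, the lowest of the regulatory genes.

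Psma3 (chromosome 12, 70974621 to 70996347) was the core gene with the least settled transcripts. The coding Psma3-204 held 20.9% in replicate 1 and 57.7% in replicate 2, and Psma3-201, typed as a target of nonsense-mediated decay, 43.1% and 17.1%. All its coding transcripts together held 24.1% and 60.5%, a mean of 42.3% and the lowest of all members with counts. The second quantification gave the lead to Psma3-203 instead, with 46.9% and 37.3%, and there coding transcripts held 22.3% on average. Much of the gene's TPM was thus assigned to transcripts not typed as coding. Psma3 was also the only member 1.5-fold or more apart between quantifications, at 210 and 193 TPM in the second against 304 and 302 in the first. Of the 50-base windows of its leading transcript 78.5% also occur in another gene, most often the pseudogene Gm13835, the highest share of all members. Its gene level was steady between libraries, but the split among transcripts was not, and a part played by shared sequence was not tested.

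**Figure D5:**
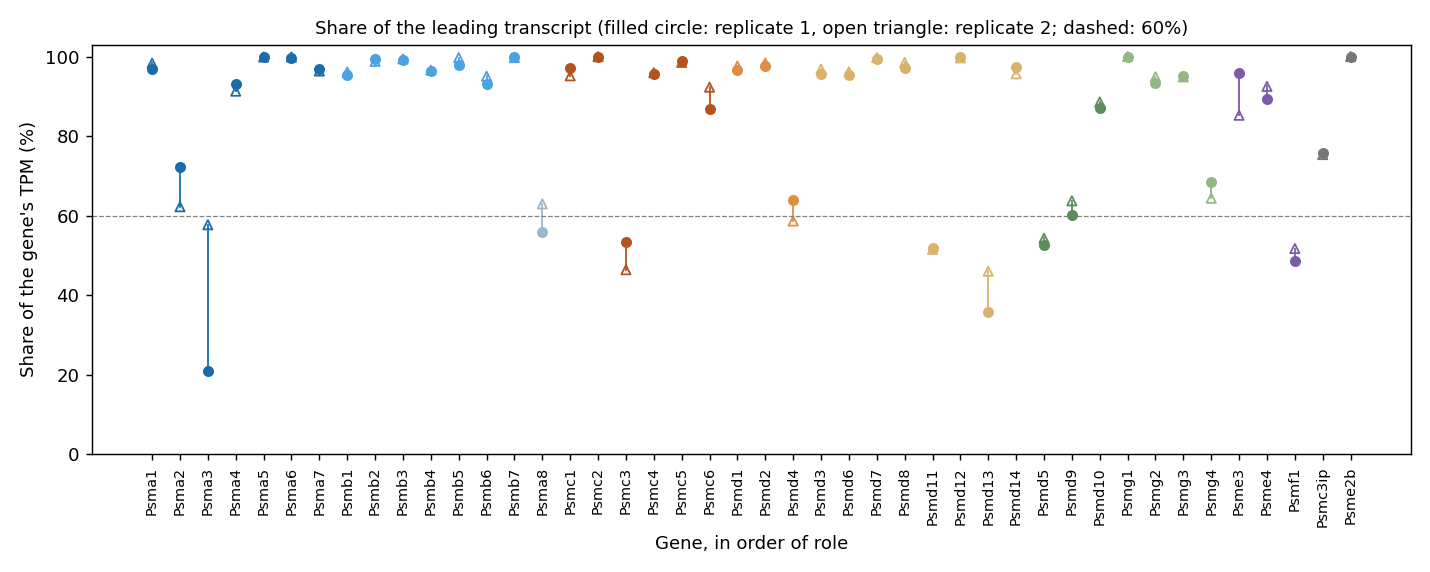
Share of gene TPM held by the leading transcript of each member with counts, in percent (filled circles, replicate 1; open triangles, replicate 2; dashed line, 60%). Most members lie above 80%, Psma3 differs most between libraries (20.9% and 57.7%) and the Psmd13 transcript shown, which has the higher mean share, is not typed as coding.

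Sequence shared with other genes touched some levels. Of the 45 members, 13 shared 5% or more of the 50-base windows of their leading transcript with another gene, 6 of them core and 4 regulatory, and 23 shared none. Besides Psma3 and Psme2b, the shares were highest in Psmb5 (57.1%), Psmb3 (55.8%) and Psma5 (55.4%). The 11 members with fractional counts, where reads were divided among genes, were all among the 13. The other two, Psmc1 (17.6%) and Psmg3 (22.7%), had whole counts. Psmb6, Psma6 and Psmd8, the highest in their lists, each shared under 5%. Levels of the second quantification were a median of 0.938-fold those of the first, lower in 37 members and higher in 7. Both directions occurred among members that share no window, such as Psma6 (0.898-fold) and Psme3 (1.13-fold). The same comparison over all genes was not made, so these counts do not set the members apart.

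Exons of some members overlap those of another gene, and whether strand was used in the counting is not given in the sources used here. Psmb7 shares 405 exon bases with Nek6 on the opposite strand, which had 748 and 1015 counts against 5257 and 5023 for Psmb7. Psmc3 shares 215 bases with Slc39a13 (2368 and 1509 counts) on the opposite strand, and Psmd13 shares 342 with Sirt3 (150.1 and 143 counts). Psmc3ip, with 74.7 and 68.7 counts, shares 385 bases with Mlx on the opposite strand, with 2060 and 2103 counts. Of the 50-base windows of the leading Psmc3ip transcript 27.05% also occur in Mlx, so part of the low Psmc3ip level cannot be told apart from reads of Mlx. For the other subunits with such an overlap the partner had at most 24 counts in a library. Unrounded, the counts of Psmb7 and Nek6 are fractional but add up to whole numbers in each library, as do those of Psmc3ip and Mlx. In these pairs reads were thus divided between genes on opposite strands, so strand did not separate them.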

How the data were processed

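PolyA-selected RNA of 2 macrophage libraries of 1 group was measured. For each library the authors deposited gene and transcript tables with expected counts, TPM and FPKM, per the file headers (the first quantification), and a transcript table with estimated counts and TPM (the second). The build was mm10 with GENCODE M21, per the deposited README. The names of the aligner and quantifiers: not given in the sources used here. Of each table, 26345 entries that are no gene held 31876 and 31336 counts (0.0631% and 0.0676%) and were left out.

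Levels are the deposited gene TPM, and levels of genes were compared on that scale, with count medians given beside it for core and regulatory subunits; log2 values of pairs used a pseudocount of 1. FPKM served only as an alternative. Expected counts were rounded, filtered with filterByExpr (minimum count 10) and scaled with TMM in edgeR 4.0.16 (prior count 0.5, R 4.3.3); DESeq2 1.42.0 size factors were an alternative. With 2 libraries of 1 group no gene was tested for a difference; 95% intervals of library ratios are exact and cover counting error only. The ratio code was tested on simulated data. Tables and figures were made with Python 3.11.15, matplotlib 3.10.9, SciPy 1.17.1, NumPy 2.4.6 and pandas 2.3.3. A gene at 0 counts could have had up to 3.

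Roles and the pathway list came from textbook knowledge; the members and lists were chosen with earlier results of these data known. Of 35 listed pathway genes 34 matched by symbol. Each library's value is given for the highest and lowest member of each role list, the catalytic subunits, Psmd4, Psmd14, the tissue-restricted, chaperone, activator and inhibitor genes, members 1.5-fold apart between libraries or quantifications, and members whose leading transcript held under 60% in both libraries. The alternatives with Adrm1 and Sem1 and over the shared range of lengths were chosen after seeing the data.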

Additional observations from a re-analysis of the deposited data

Results flagged for a closer look

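The pseudogene Psmb7-ps2, left out of the member list, had 4.34 expected counts in replicate 2 and 0 in replicate 1. A count of 0 allows up to 3 counts, so values this low do not show that the libraries differ.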

How the results depend on the processing

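Of 59 alternative values, 48 kept their direction and stayed within the spread between libraries or within 1.5 times a count, 10 moved and 1 reversed. Some of the 48 were fixed in advance. Where a value has an SD over 2 libraries, leaving out a library always stays within that SD. FPKM is proportional to TPM within a library, so it could not move the difference of core and regulatory medians either. The core median of 207 TPM was 186 in the second quantification, 196 over coding transcripts alone, 199.9 with Psma8 and Psmb11 counted as core, 217 over the alpha and 195 over the beta ring. The regulatory median of 124 TPM was 145 over the base and 94.1 over the lid. The log2 difference of core and regulatory medians, 0.74, was 0.51 against the base and 1.14 against the lid; over the range of lengths that both sets share it was -0.064 (2 core genes, chosen after seeing the data). The log2 difference of Psmb10 and Psmb7, 0.98, was 0.84 in the second quantification. Leaving out a library gave core medians of 204.7 to 208.9 TPM, regulatory medians of 115.7 to 133.1 and differences of 0.62 to 0.85. Depth limits the ratio of the chaperone Psmg4 (317 and 198 counts) and the levels of Psma8 and Psmc3ip (69 and 73 and 74.7 and 68.7 counts).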
